A study of Solanum lycopersicum with 12 samples.

Results

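The leaf genes described here are the probe sets whose level was higher after pre-treatment with Alethea on each of 3 separate occasions of the same tomato experiment. For each occasion, the Alethea change was the average, in log2 units, of 2 differences, AW minus WW and AS minus WS, and a probe set was a member when this change was at least 0.4 on all 3 occasions and its mean level was above 3.2 in at least 1 group. Of 10209 probe sets on the array, 7732 passed the level filter once the manufacturer's control probe sets had been left out, and 106 of these were members, which is 1.37%. The same rule turned round, a change of -0.4 or lower on each occasion, took 140 probe sets, or 1.81%. Because the Alethea change chose the members, it is given below as a description and was not tested.

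The plants were tomato, cv. Ailsa Craig, 4 weeks old, and RNA came from the third true leaf. In WW, leaves were sprayed with distilled water and the pots were watered 24 h later with water. WS plants had the same water spray and were then given 100 mM NaCl, AW plants were sprayed with Alethea, diluted 99 parts of water to 1 of product, and then given water, and AS plants had Alethea followed by the NaCl. Leaves were frozen 24 h after salt or water and 48 h after the spray, and leaves of 3 plants were pooled for each of the 12 arrays, 3 per group, 1 from each occasion. Alethea holds potassium dihydrojasmonate, sodium benzoate and L-arginine together with zinc, iron, manganese, copper, magnesium oxide and boron, so no group shows the response to any 1 of these agents.

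Jasmonates are lipid-derived hormones that switch on wound and herbivore defences, among them proteinase inhibitors, arginase and leucine aminopeptidase in tomato leaves. Salicylic acid, which plants can make from benzoic acid, acts against biotrophic pathogens and drives many pathogenesis-related (PR) proteins, and ethylene acts together with both. Elicitors from microbes are perceived at the cell surface and induce a further set of leaf genes, with chitinases, glutathione S-transferases and enzymes of phenolic amide synthesis among them. Bulk leaf RNA cannot separate a change in the share of a cell type from a change of RNA within cells.

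Levels are the authors' GCRMA values in log2 units, in which a difference of 1 is a doubling, and signals of different probe sets were not compared with each other. Array medians lay between 7.66 and 7.76. The labelled tissue showed leaf markers that the annotation names: CAB4, CAB5, CAB6A and PSBO, all for proteins of photosynthetic light harvesting or water splitting, lay between 14.46 and 15.31 on every array. The fruit genes E8 and PG2 lay between 2.29 and 2.60, and TPRP-F1, a gene of young fruit, between 1.79 and 3.24. A gene symbol was annotated for 26 members, a further 35 could be named only by the closest sequence match listed in the study's additional files, often from another species, and 45 had no usable name. A role was assigned to 43 members, and the other 63 are given by counts and by the few that the results turned on.

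The mean Alethea change of the members ranged from 0.45 to 2.93 with a median of 0.83, a 1.77-fold difference. The change was at least 1 in 36 members and at least 2 in 5 of them. Occasion 2 gave the largest change in 73 members, occasion 3 in 17 and occasion 1 in 16, and the median change was 0.60, 0.98 and 0.75 on occasions 1, 2 and 3. Among the members just inside the threshold, the smallest of the 3 changes was 0.4005 for a probe set matched to MYB111, 0.4007 for Les.1100.1.A1_at, 0.4009 for LesAffx.56422.1.A1_at and 0.4012 for Les.2700.1.S1_at. Just outside it were Les.876.1.A1_at at 0.398, Les.2214.1.A1_at at 0.392, PTI4, an ethylene response factor that binds the resistance kinase Pto, at 0.390, and Les.2854.1.S1_at at 0.387. No gap separated the 2 sides.

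**Figure D1:**
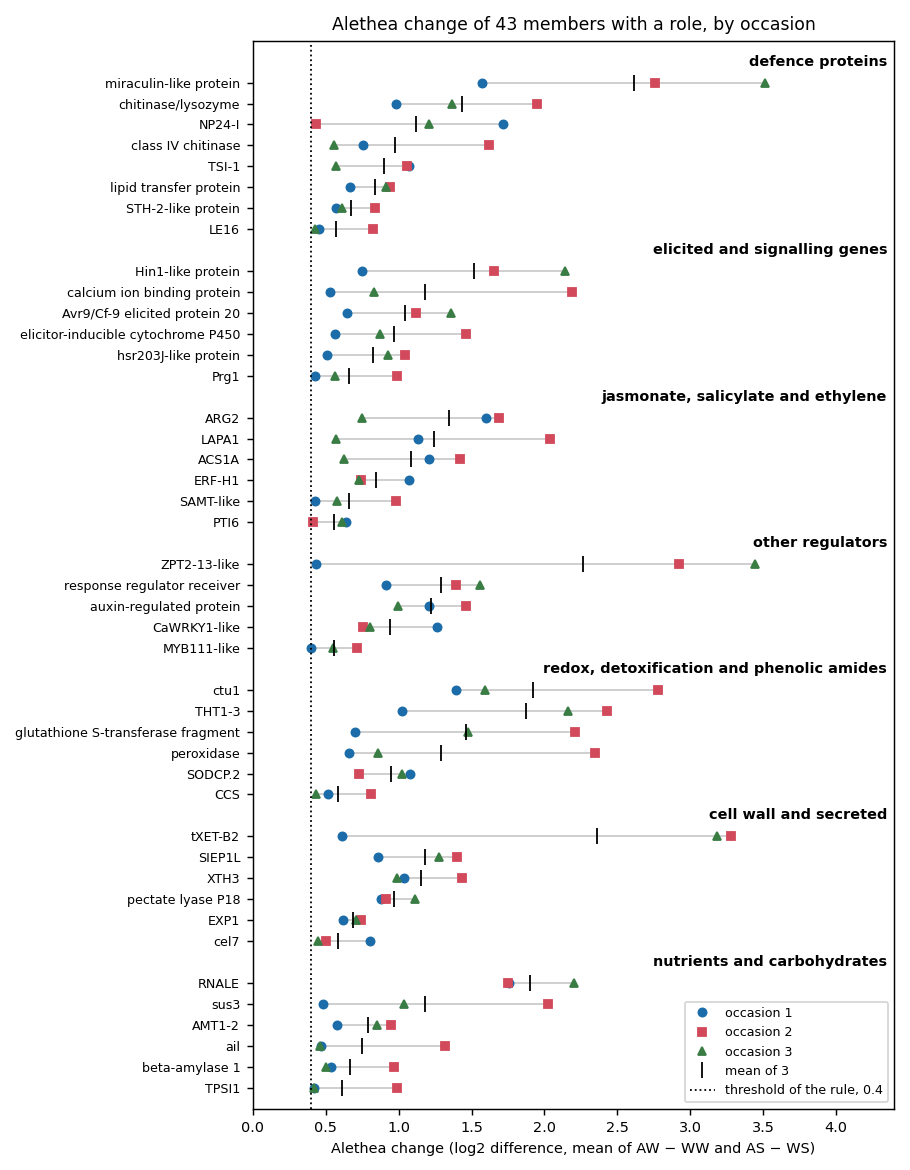
Alethea change (log2 difference, horizontal axis) of the 43 members with an assigned role, grouped by role, with 1 symbol for each of the 3 occasions, a vertical bar for their mean and a dotted line at the threshold of 0.4. The miraculin-like gene, tXET-B2 and the ZPT2-13-like gene reach mean changes above 2, and the last of these has a change of 0.43 on occasion 1 against 3.44 on occasion 3.

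Defence proteins made up 8 of the members with a role, with mean changes of 0.57 to 2.61. The largest was that of a gene matched to a miraculin-like protein, a relative of the Kunitz proteinase inhibitors, which read 4.31, 6.24 and 3.99 in WW, 3.14, 4.05 and 4.47 in WS, 6.08, 8.02 and 8.22 in AW and 4.51, 7.77 and 7.27 in AS, in the order of occasions 1, 2 and 3. Its change was 2.61 ± 0.98 (SD over 3 occasions), or 6.12-fold, and each Alethea array was above the water array of its own occasion and salt treatment, although the water arrays lay between 3.14 and 6.24 and the Alethea arrays between 4.51 and 8.22. A chitinase/lysozyme gene, for an enzyme that cuts fungal cell wall chitin, read 5.26, 4.96 and 5.52 in WW, 4.55, 5.41 and 6.15 in WS, 5.86, 7.30 and 7.10 in AW and 5.92, 6.97 and 7.31 in AS, and its change was 1.43 ± 0.49. A second chitinase, of class IV, had a change of 0.98 ± 0.56, and another probe set of the same design cluster, which also passed the filter, had a mean change of -0.17.

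NP24-I, the tomato osmotin-like PR-5 protein that accumulates in salt-adapted cells, read 5.15, 10.41 and 9.27 in WW, 4.49, 9.52 and 9.19 in WS, 7.03, 10.47 and 10.83 in AW and 6.04, 10.33 and 10.04 in AS. Its change was 1.12 ± 0.65, and it was largest on occasion 1, at 1.71, and smallest on occasion 2, at 0.43, when the WW array already read 10.41. The Alethea arrays of occasion 1 lay below all 4 water arrays of the other occasions, so the 2 sets of arrays overlapped. TSI-1 and an STH-2-like gene, both of the intracellular PR-10 family, had changes of 0.90 ± 0.29 and 0.67 ± 0.15. LE16, a non-specific lipid transfer protein known to respond to drought and abscisic acid in tomato, had a change of 0.57 ± 0.22 and was higher after Alethea in 4 of 6 within-occasion pairs, the fewest of any member, and a second lipid transfer protein gene had a change of 0.84 ± 0.15. Of the 11 pathogenesis-related probe sets on a list of array symbols that passed the filter, 2 were members and none was lowered under the mirrored rule. Several well-known PR genes on that list were not members, with mean changes of 0.12 for PR1b1, 0.12 for CHI9, a chitinase, 0.24 for P4, a PR-1 gene, and -0.08 for PR-5. Others that were not members had larger mean changes, 0.65 for CHI14 and 0.45 for GluB, and 10 of the 11 probe sets were above 0. The list's median change was 0.28, beside -0.00 over all 7732 probe sets that passed, of which 3838 had a mean change above 0. This and the other lists were written after member values had been seen, so their counts are in part a product of that choice.

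Another 6 members carry names of genes first found as responses to elicitors or as signalling components. A gene that matched a Hin1-like protein in one database and a ripening regulated protein in another read 7.28, 8.11 and 7.47 in WW, 6.48, 7.73 and 8.08 in WS, 7.63, 9.65 and 10.30 in AW and 7.63, 9.50 and 9.54 in AS, a change of 1.51 ± 0.71. A tobacco-like Avr9/Cf-9 rapidly elicited protein 20 gene, named after the response of leaf cells carrying the resistance gene Cf-9 to the fungal effector Avr9, read 9.28, 9.05 and 8.74 in WW, 8.17, 8.84 and 8.70 in WS, 9.31, 10.14 and 10.53 in AW and 9.43, 9.99 and 9.62 in AS. Its 6 Alethea arrays all lay above its 6 water arrays, by 0.03 at the closest point, and its change was 1.04 ± 0.36. An elicitor-inducible cytochrome P450 gene had a change of 0.97 ± 0.46, an hsr203J-like gene, whose tobacco relative marks the hypersensitive response, 0.82 ± 0.28, and a calcium ion binding protein gene 1.18 ± 0.88. Prg1, a Pto-responsive gene, had a change of 0.66 ± 0.29. Eix1, a receptor-like protein related to the xylanase receptor, was not a member although its mean change was 1.41, since the rule needs every occasion. Of the 6 probe sets of elicitor receptors and Pto-linked genes that passed the filter, Prg1 and PTI6 were the 2 members, 5 had a mean change above 0 and the median was 0.61.

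LAPA1, the acidic leucine aminopeptidase that tomato leaves make after wounding and jasmonate, read 6.01, 6.66 and 8.13 in WW, 5.82, 6.60 and 8.78 in WS, 6.79, 8.33 and 8.55 in AW and 7.30, 9.0 and 9.50 in AS, a change of 1.24 ± 0.74. Each Alethea array was above its own water array, while the occasion 3 water arrays reached 8.13 and 8.78, higher than both Alethea arrays of occasion 1. ARG2, an arginase that breaks down the arginine that the spray also contains and is wound-inducible in tomato, read 5.32, 9.27 and 9.02 in WW, 6.64, 9.09 and 10.09 in WS, 7.08, 10.74 and 9.92 in AW and 8.08, 10.99 and 10.70 in AS. Its change was 1.35 ± 0.52, and a further ARG2 probe set missed the rule on occasion 3 with changes of 1.2, 1.7 and 0.31. ARG1, the other arginase gene, had a mean change of 0.51. Another ARG2 probe set lay below the level filter in every group. Of the 7 jasmonate and wound marker probe sets that passed the filter, the 2 for LAPA1 and ARG2 were members. All 7 had a mean change above 0, and the median was 0.88. None of the 7 was a proteinase inhibitor or polyphenol oxidase gene, so these counts do not cover those markers. The list was also written after member values had been seen. The study named both, with leucine aminopeptidase and threonine deaminase, among jasmonate markers that it did not find in significant numbers among stress-related genes raised by Alethea. LAPA1 and LAPA2 are leucine aminopeptidase genes and TD2 is a threonine deaminase gene, so the values given here include markers of these kinds. The defence gene TD2, threonine deaminase, had 0.67 and twi1, a wound-induced glucosyltransferase, 0.88. Both changed most on occasion 2, at 1.65 and 1.94. LAPA2, a second leucine aminopeptidase gene, had 0.11.

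A gene matched to SAMT of a nightshade, an enzyme that methylates salicylic acid and its relatives, read 10.08, 10.55 and 11.26 in WW, 10.45, 10.73 and 11.46 in WS, 10.59, 11.54 and 11.79 in AW and 10.79, 11.70 and 12.09 in AS. Its change was 0.66 ± 0.29, and the salt-treated array was above the unsalted one in each of the 6 pairs of the same spray and occasion. In the ethylene pathway, ACS1A, which makes the ethylene precursor ACC, had a change of 1.08 ± 0.41 at a low level, 3.40, 5.06 and 3.65 in WW, 3.80, 4.53 and 6.51 in WS, 4.99, 5.47 and 6.25 in AW and 4.63, 6.96 and 5.17 in AS. Its pairs of occasion 3 ran in opposite directions. AW minus WW was 2.60 there and AS minus WS was -1.35, the lowest pair difference of any member. The transcription factor genes ERF-H1 and PTI6, both of the ethylene response factor family, had changes of 0.85 ± 0.19 and 0.55 ± 0.12. ERF-H1 stayed near the filter, with group means of 2.77 in WW, 2.59 in WS, 3.86 in AW and 3.2 in AS. PTI5, another Pto-interacting factor, had a mean change of 1.6 without being a member. ACS1A, ERF-H1 and PTI6 were the 3 members among 19 ethylene synthesis and response probe sets that passed the filter, whose median change was 0.27, and 15 of the 19 were above 0.

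Of the other regulators, the zinc finger gene similar to petunia ZPT2-13 read 5.37, 4.97 and 3.83 in WW, 4.4, 4.57 and 4.64 in WS, 5.19, 7.93 and 8.26 in AW and 5.45, 7.46 and 7.10 in AS. Its change was 0.43, 2.92 and 3.44 on occasions 1, 2 and 3, so occasion 1 barely met the rule and its unsalted Alethea array lay below the WW array. A gene for a response regulator receiver protein, of a family that relays cytokinin signals, read 7.10, 6.04 and 6.68 in WW, 6.49, 6.25 and 5.92 in WS, 8.12, 8.11 and 8.28 in AW and 7.29, 6.96 and 7.43 in AS, a change of 1.29 ± 0.34. LOC543701, annotated as an auxin-regulated protein, had a change of 1.22 ± 0.23 and a WRKY gene similar to pepper CaWRKY1 0.94 ± 0.28. The latter was largest on occasion 1, at 1.26. A probe set matched to MYB111, a flavonol regulator in Arabidopsis, had 0.55 ± 0.16, and the sister probe set of the same cluster, read in the other orientation, had changes of 0.03, 1.85 and 2.15. Among 21 transcription factor probe sets with a symbol that passed the filter, ERF-H1 and PTI6 were the 2 members, 18 had a mean change above 0 and the median was 0.25.

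The redox and detoxification members were led by ctu1, a glutathione S-transferase of the tau class, enzymes that join glutathione to toxic compounds, which read 6.52, 6.69 and 7.03 in WW, 4.78, 6.28 and 7.84 in WS, 7.29, 8.97 and 9.46 in AW and 6.80, 9.56 and 8.60 in AS. Its change was 1.92 ± 0.75, 3.79-fold, and the WS array of occasion 3, at 7.84, was above both Alethea arrays of occasion 1. A probe set matched to a glutathione S-transferase fragment read 10.40, 10.48 and 10.90 in WW, 9.10, 10.30 and 10.97 in WS, 10.48, 12.47 and 12.51 in AW and 10.43, 12.73 and 12.31 in AS, a change of 1.46 ± 0.75. A peroxidase gene had a change of 1.29 ± 0.92, at levels of 2.07 to 5.87, partly below the filter. THT1-3, which joins hydroxycinnamic acids to tyramine to make cell wall phenolic amides, read 5.78, 7.10 and 6.49 in WW, 4.48, 6.32 and 7.36 in WS, 5.71, 9.27 and 9.23 in AW and 6.59, 9.01 and 8.95 in AS, a change of 1.87 ± 0.75. Its relatives THT7-1 and THT7-8 had mean changes of -0.11 and 0.46. Of 9 secondary metabolism probe sets that passed, THT1-3 was the 1 member, and the median change was 0.42.

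The chloroplast copper/zinc superoxide dismutase gene SODCP.2, for an enzyme that removes superoxide, read 8.74, 8.56 and 10.39 in WW, 8.49, 8.98 and 9.14 in WS, 8.80, 10.02 and 10.82 in AW and 10.59, 8.97 and 10.77 in AS. Its change was 0.95 ± 0.19, but it came from different pairs on different occasions: on occasion 1 AW was 0.06 above WW and AS 2.11 above WS, while on occasion 2 these differences were 1.46 and -0.01. CCS, the chaperone that loads copper into these enzymes, had a change of 0.59 ± 0.20. The cytosolic copper/zinc gene SODCC.1 had a mean change of 0.61 without being a member, and FESOD, the iron enzyme, had -0.45. The 16 detoxification and redox probe sets that passed the filter had a median change of 0.01 and 3 members, ctu1, SODCP.2 and CCS, and the 4 ascorbate peroxidase probe sets lay between -0.50 and 0.01. None of the 5 heat shock probe sets with a symbol was a member, and their median change was 0.08. A member without a symbol, matched to Heat shock cognate 70 kDa protein 1, a chaperone, read 8.85, 8.26 and 9.90 in WW, 8.29, 8.97 and 10.02 in WS, 9.07, 10.40 and 10.82 in AW and 9.38, 10.79 and 10.74 in AS. Its change was 1.15 ± 0.72, and each Alethea array was above its own water array.

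In the cell wall group, tXET-B2, a xyloglucan endotransglycosylase that cuts and rejoins wall xyloglucan, read 3.27, 3.48 and 3.23 in WW, 3.04, 2.68 and 3.69 in WS, 3.75, 6.56 and 8.08 in AW and 3.78, 6.16 and 5.20 in AS. All 6 Alethea arrays lay above the 6 water arrays, by 0.06 at the closest, but the change was 0.61 on occasion 1 against 3.28 and 3.18 on the others. The related gene XTH3 read 4.68, 6.78 and 6.80 in WW, 3.78, 6.26 and 7.28 in WS, 5.28, 8.06 and 8.50 in AW and 5.26, 7.85 and 7.56 in AS, a change of 1.15 ± 0.24 with similar values on each occasion. A gene matched to SIEP1L of Beta vulgaris read 8.22, 9.31 and 9.49 in WW, 7.22, 7.92 and 8.16 in WS, 9.22, 10.47 and 10.81 in AW and 7.94, 9.56 and 9.40 in AS, and its change was 1.18 ± 0.28. EXP1, an expansin known from ripening fruit, had a change of 0.69 ± 0.06, the endoglucanase gene cel7 0.58 ± 0.19 and a gene similar to the pectate lyase P18 0.97 ± 0.12. Of 23 cell wall probe sets on the list that passed the filter, 3 were members and the median change was 0.02, and XTH1 and XET2 had mean changes of -0.34 and -0.43.

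RNALE, an extracellular ribonuclease induced by phosphate starvation in tomato cells, read 6.51, 8.53 and 8.04 in WW, 7.31, 8.39 and 7.87 in WS, 8.65, 10.49 and 10.01 in AW and 8.68, 9.93 and 10.31 in AS. It had nearly the same change on every occasion, 1.75, 1.75 and 2.21, a mean of 1.90 ± 0.26 or 3.74-fold, and its Alethea arrays did not overlap its water arrays. TPSI1, a phosphate-starvation-induced transcript that the RefSeq annotation lists as a long non-coding RNA, had a change of 0.61 ± 0.33, and ail, annotated as similar to the SPX-domain protein IDS4, 0.75 ± 0.49. A second ail probe set missed the rule on occasion 3, with changes of 0.45, 0.76 and 0.16. All 7 phosphate and ribonuclease probe sets that passed the filter had a mean change above 0, with a median of 0.46, and 3 of them were members. PT1, a phosphate transporter, had 0.34 and APS1, an acid phosphatase, 0.14.

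AMT1-2, a high-affinity ammonium transporter, read 9.46, 12.18 and 12.50 in WW, 9.04, 12.51 and 12.35 in WS, 9.68, 13.11 and 13.36 in AW and 9.98, 13.47 and 13.19 in AS, a change of 0.79 ± 0.19. Of the carbohydrate genes, sus3, a sucrose synthase, had a change of 1.18 ± 0.78 with 0.48 on occasion 1, and a beta-amylase gene had 0.67 ± 0.26, with every Alethea array (8.59 to 8.96) above every water array (7.82 to 8.35). The S-form probe set of the same cluster as the beta-amylase gene passed the filter with changes of -0.18, 0.24 and -0.01.

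The largest change of all belonged to a probe set without a usable name, Les.5229.1.S1_at, which read 3.46, 2.82 and 3.41 in WW, 3.12, 3.12 and 4.23 in WS, 4.66, 6.69 and 7.57 in AW and 5.17, 6.99 and 6.67 in AS. Its change was 2.93 ± 1.17, 7.63-fold, and its 2 sets of arrays did not overlap. LOC544158 read 8.01, 9.12 and 9.12 in WW, 7.29, 8.89 and 9.12 in WS, 8.32, 11.44 and 11.77 in AW and 9.68, 11.75 and 11 in AS, a change of 2.07 ± 0.64, and LesAffx.16102.1.S1_at, matched to an AAA-ATPase, read 2.22, 2.61 and 2.83 in WW, 2.12, 2.13 and 3.09 in WS, 2.61, 4.24 and 6.27 in AW and 2.63, 5.26 and 4.06 in AS. Its change was 1.68 ± 1.07, at water levels of 2.12 to 3.09, below the filter. For 6 members, including this one, tXET-B2, ERF-H1 and the peroxidase gene, at least 1 group mean was 3.2 or lower, the range that the level filter treats as not expressed. Among members without an assigned role, CycD3;3, a D-type cyclin that links growth signals to entry into the cell cycle, read 4.85, 4.63 and 4.33 in WW, 4.74, 4.60 and 4.93 in WS, 4.94, 6.51 and 5.54 in AW and 6.27, 5.92 and 5.88 in AS. Its change was 1.16 ± 0.40 and its arrays did not overlap, but only narrowly. The lowest Alethea array, AW of occasion 1, read 4.94 and the highest water array, WS of occasion 3, 4.93. A probe set matched to subunit 1 of the chloroplast NAD(P)H-quinone oxidoreductase, or NDH, which passes electrons to plastoquinone, read 4.84, 4.46 and 3.16 in WW, 4.44, 4.67 and 4.55 in WS, 4.46, 4.5 and 4.72 in AW and 6.24, 5.62 and 4.61 in AS. Its change was 0.67 ± 0.17, with a difference of -0.38 in the unsalted pair of occasion 1, and an A-form probe set of its cluster was not a member, with changes of -0.37, 2.48 and 2.33.

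All 6 Alethea arrays lay above all 6 water arrays in 12 members, and in 50 of the 7732 probe sets, which is 0.647%. Since the rule itself asked for higher values after Alethea, nothing can be read from this share. The 12 include tXET-B2, RNALE, CycD3;3, the Avr9/Cf-9 elicited gene, the beta-amylase gene and genes matched to PRP38, a splicing factor, a MAR-binding protein of the nuclear matrix and a RanGAP1 interacting protein. In the other 94, the arrays overlapped.

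**Figure D2:**
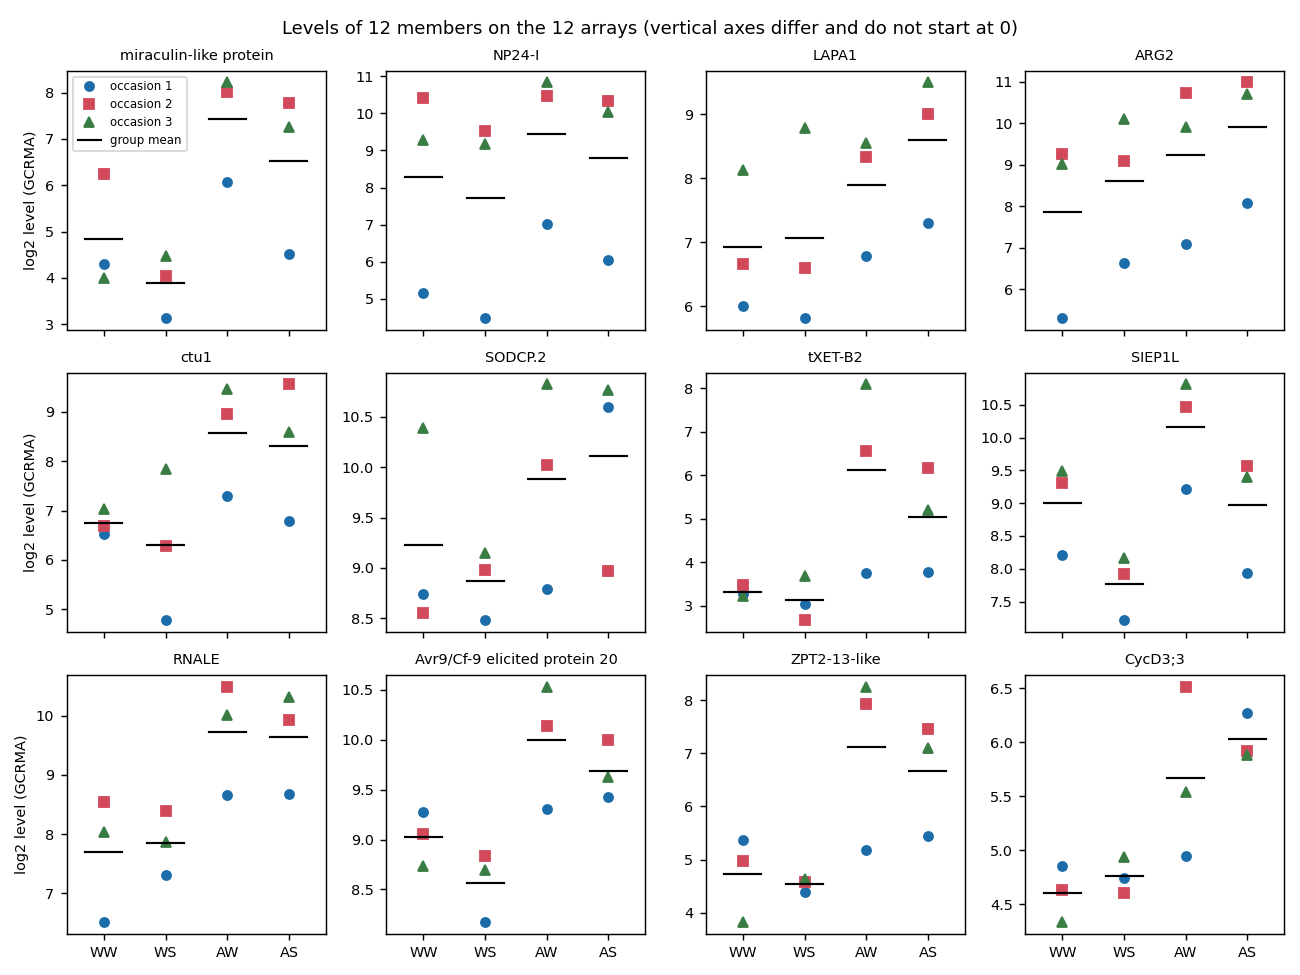
Levels of 12 members (log2, GCRMA, vertical axes, which differ between panels) on each of the 12 arrays, in the groups WW, WS, AW and AS, with 1 symbol for each occasion and a black line for each group mean (n = 3). RNALE, tXET-B2, CycD3;3 and the Avr9/Cf-9 elicited gene show no overlap between water and Alethea arrays, whereas those of NP24-I, ARG2 and LAPA1 overlap, and the 4 arrays of occasion 1 are the lowest for NP24-I and ARG2.

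Within occasions, each member gives 6 pairs of an Alethea and a water array with the same salt treatment. The difference was above 0 in all 6 pairs for 83 members, in 5 pairs for 22 and in 4 pairs for LE16 alone, beside 9.16% of all probe sets with 6 pairs above 0, a share that the rule again fixes in part. The median difference was 0.39 for AW minus WW and 0.91 for AS minus WS on occasion 1, 1.08 and 0.97 on occasion 2 and 0.82 and 0.70 on occasion 3. The unsalted pair of occasion 1 was thus the weakest, and it held 13 of the differences at or below 0. The calcium ion binding gene was lowest there, at -1.02.

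Control values also differed within these pairs. The actin control probe sets, which read the 3′ and 5′ ends of 1 transcript and so follow how complete the labelled RNA was, gave a 3′ minus 5′ difference of 0.85, 0.59 and 0.82 in WW and 0.54, 0.54 and 0.86 in WS, against 0.94, 1.53 and 1.27 in AW and 1.72, 1.43 and 1.25 in AS. The Alethea array was higher in 6 of 6 pairs. By pair, the excess was 0.09 unsalted and 1.18 salted on occasion 1, 0.93 and 0.89 on occasion 2 and 0.45 and 0.39 on occasion 3, so it was smallest in the pair where the members also differed least. The order did not hold throughout. The largest excess, 1.18, fell in a pair with a member median of 0.91, below the 1.08 and 0.97 of occasion 2. The GAPDH control was likewise higher in 6 of 6 pairs, by 0.07 to 0.29. The bacterial hybridisation controls read 12.45 in WW and 12.37 in WS of occasion 2, the occasion in which most members differed most, and 10.77 to 11.68 on the other 10 arrays. The part of these controls in the members' change was not tested.

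A property of the array design that the rule did not use was more frequent among the members than among all probe sets. A letter in each probe set's identifier, A or S, stands in the manufacturer's naming for the orientation in which the design sequence was used, which the files analysed here do not explain further. The A form makes up 42 of the 106 members (39.6%), beside 1436 of the 7732 probe sets that passed (18.6%) and 2 of the 140 lowered in all 3 occasions (1.43%). Across all probe sets, those of the A form had a median Alethea change of 0.21 and those of the S form -0.05, and 82.7% of the A form had a mean change above 0 against 42.1% of the S form. By pair, the median of all A-form probe sets was 0.00 for AW minus WW and 0.27 for AS minus WS on occasion 1, 0.33 and 0.31 on occasion 2 and 0.17 and 0.13 on occasion 3, again smallest where the actin excess was smallest. What this shared shift contributed to the 42 was not tested. Only 12 of the 42 had a name, against 49 of the 64 members of the S form, and ARG2, TSI-1, the SAMT-like, MYB111-like and beta-amylase genes and a match to actin depolymerizing factor 8 were among the named. The median change of the A-form members was 0.71 and that of the S-form members 0.96.

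**Figure D3:**
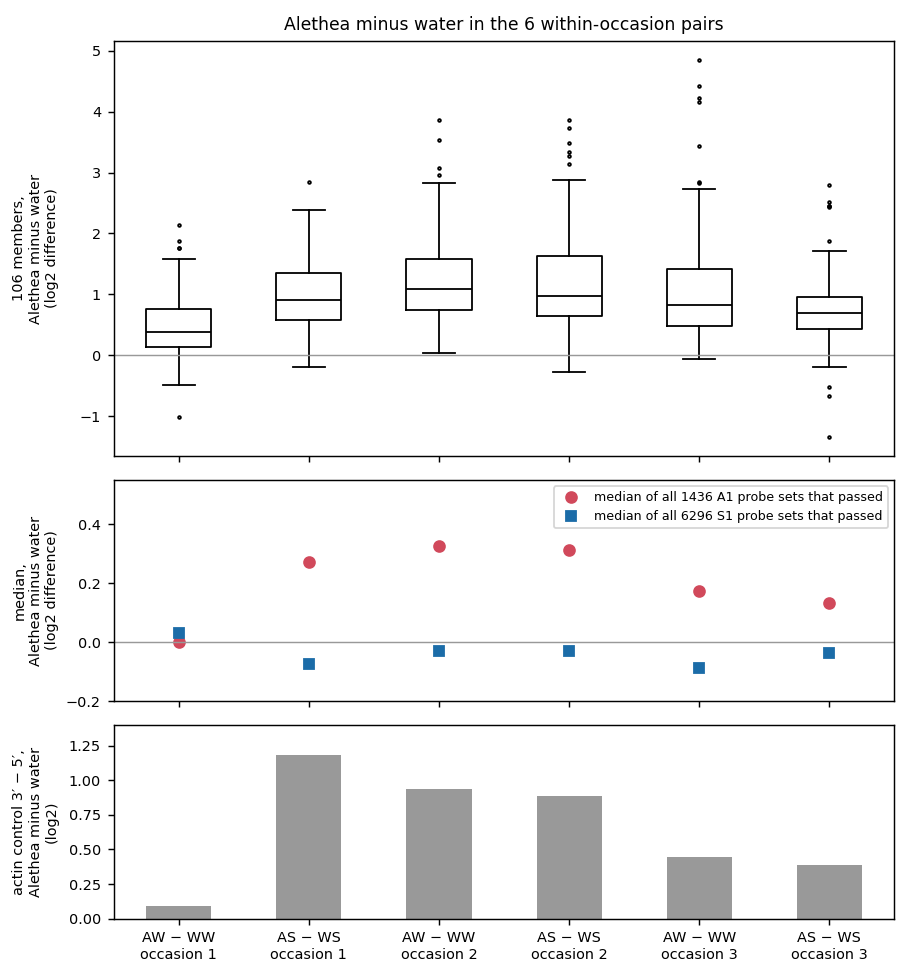
Alethea minus water for the 6 array pairs matched by occasion and salt treatment. Top, log2 difference of the 106 members (line, median; box, quartiles; whiskers, 1.5 interquartile ranges); middle, median difference of all A-form and all S-form probe sets that passed the filter; bottom, difference in the actin 3′ minus 5′ control. The unsalted pair of occasion 1 is lowest in the top and bottom panels, with a member median of 0.39 and an actin excess of 0.09.

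For 24 members, other probe sets carry the same symbol or belong to the same design cluster, 29 in all, of which 23 passed the filter. Of these 23, 4 were members themselves, which are 2 pairs of probe sets for 2 unnamed transcripts, and 19 were not. Those 19 had a median change of 0.21, 13 of them had a mean change above 0 and 6 were above 0 on each occasion. Thus a member does not stand for every probe set of its gene. For LOC543955, a second probe set had changes of -0.06, -0.03 and -0.16, beside a mean of 1.26 for the member.

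Every occasion holds all 4 groups, so the difference between occasions, averaged over the groups, is a separate contrast from the Alethea change that chose the members, and it was tested with limma for occasion 1 against the mean of occasions 2 and 3. Of the 106 members, 64 (60.4%) were lower in occasion 1 at an adjusted p below 0.05, beside 24.7% of the 7779 probe sets tested, and 12 (11.3%) were higher, beside 27.4%. At an unadjusted p below 0.05, 81 members (76.4%) differed in either direction, beside 58.1% of all. The median difference was -0.997 in the members and 0.01 over all probe sets. It was -0.44 in WW, -0.70 in WS, -1.19 in AW and -1.05 in AS, so the members were lower in occasion 1 also where no Alethea had been sprayed, with medians nearer 0 than after Alethea. The smallest Alethea change fell in occasion 1 for 63 of the 106 members, so that the 2 measures were not unrelated within the members. The 140 probe sets lowered by Alethea went the other way, with a median of 0.32, 60 called higher and 23 lower. Each occasion is 1 experiment, so this test compares these 3 experiments through their arrays and not conditions that set them apart.

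All 8 defence protein genes were lower in occasion 1, with differences of -0.94 for the chitinase/lysozyme gene to -4.33 (SE 0.24, adjusted p = 3.66e-06) for NP24-I. Its arrays of occasion 1 lay between 4.49 and 7.03 and those of the other occasions between 9.19 and 10.83. LOC543955 had the lowest difference of any member, -4.85 (SE 0.50, adjusted p = 7.94e-05), and AMT1-2 was lower by a difference of -3.29 (SE 0.13, adjusted p = 9.91e-07). The calcium ion binding gene had -3.31, ARG2 -3.20, TSI-1 -3.16, XTH3 -2.64, CaWRKY1-like -2.41, Prg1 -2.36 and THT1-3 -2.33, all called. Of the elicited and signalling genes 5 of 6 were called lower, of the jasmonate, salicylate and ethylene genes 5 of 6 and of the cell wall and secreted genes 5 of 6. Shares were smaller elsewhere, 4 of 6 redox and detoxification genes, 3 of 5 other regulators and 3 of 6 nutrient and carbohydrate genes, with 1 higher. Of the 63 members without a role, 31 were called lower and 11 higher. The lists of array symbols, which hold these members too, did not all run one way. Of 11 pathogenesis-related probe sets, 10 were called lower in occasion 1 and 0 higher, with a median of -2.74, and of 7 jasmonate and wound markers 6 and 0, with a median of -1.72. Of 23 cell wall and expansin probe sets, however, 4 were called lower and 12 higher, with a median of 0.66, and of 16 detoxification and redox probe sets 5 and 4, with a median of -0.13. Of the 5 heat shock probe sets with a symbol 0 were called lower and 1 higher, while the member matched to Heat shock cognate 70 kDa protein 1 was called lower, at -1.09 (SE 0.26, adjusted p = 0.00789).

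The 2 orientations gave different counts here. Of the 64 S-form members, 47 were called lower in occasion 1 and 2 higher, with a median of -1.39, while of the 42 A-form members 17 were called lower and 10 higher, with a median of -0.07. Over all probe sets that passed, 25.9% of the S form and 19.3% of the A form were called lower, and 28% and 25.6% higher. The members called higher were 3.12% of the S form and 23.8% of the A form, so the A-form share of higher calls was near that of all A-form probe sets. Those called lower were 73.4% of the S-form and 40.5% of the A-form members, each above the share of its form over all probe sets. The 3 members highest in occasion 1 were A-form probe sets without a name, Les.3070.2.A1_at at 4.33 (SE 0.43, adjusted p = 6.5e-05), Les.470.2.A1_at at 2.02 and Les.2856.2.A1_at at 1.76. Among named members, TPSI1 was called higher in occasion 1, at 0.89, and SODCP.2, CCS, sus3, CycD3;3 and the beta-amylase gene were called in neither direction, with differences of -0.55, -0.24, -0.27, -0.09 and -0.07. The mean actin 3′ minus 5′ difference was 1.01, 1.02 and 1.05 on occasions 1, 2 and 3, and the array medians averaged 7.71, 7.70 and 7.74. The GAPDH difference was 0.45, 0.30 and 0.19 and the mean of the bacterial hybridisation controls 11.35, 11.80 and 11.07. The part of these controls in the difference between occasions was not tested.

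**Figure D4:**
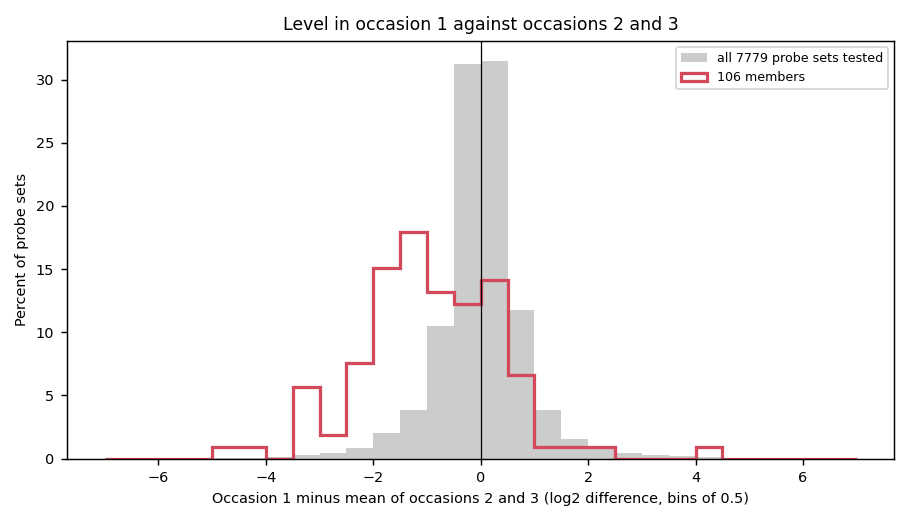
Distribution of the log2 difference between occasion 1 and the mean of occasions 2 and 3 (horizontal axis, bins of 0.5) as a percent of probe sets, of the 106 members (red outline) and all 7779 probe sets tested (grey). The members' median is -0.997, whereas the grey distribution centres near 0.01.

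Few of these genes passed a test for salt. Over both sprays, SIEP1L alone passed the test, out of 106 members, beside 3 probe sets (0.0386%) called lower and 0 called higher by limma among all 7779. SIEP1L fell with NaCl in each of 6 pairs, by a difference of -1.22 (SE 0.12, adjusted p = 0.00928), with values of -1.0, -1.38 and -1.33 after water and -1.29, -0.91 and -1.41 after Alethea. Its Alethea change was 1.18, close in size and opposite in sign, and its AS mean of 8.97 was close to its WW mean of 9.01. The call was lost without any 1 of the occasions, with adjusted p of 0.0824, 0.142 and 1.00 without occasions 1, 2 and 3, although the difference stayed between -1.26 and -1.14. At an unadjusted p below 0.05 there were 24 members, 13 higher and 11 lower, or 22.6%, beside 14.0% of all probe sets. The median salt difference of the members was -0.01.

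The next lowest salt differences did not pass the test: -0.94 for the miraculin-like gene, -0.68 for the class IV chitinase gene, -0.67 (SE 0.15, adjusted p = 0.152) for the response regulator gene and -0.64 for tXET-B2. The largest values in the other direction were 1.0 (SE 0.47, adjusted p = 0.39) for LOC543955, 0.86 for Les.1828.1.A1_at, 0.83 for LE16, 0.71 for ARG2 and 0.69 for sus3, none of which passed either. With 1 occasion left out, the value of LOC543955 ranged from 0.48 to 1.599, that of Les.1828.1.A1_at from 0.54 to 1.05, that of LE16 from 0.51 to 1.18 and that of ARG2 from 0.48 to 1.04. For the class IV chitinase gene it ranged from -0.94 to -0.30 and for tXET-B2 from -0.91 to -0.35. For sus3 the salted array was higher in 6 of 6 pairs, for ARG2 in 5 of 6 and for LE16 in 5 of 6. The MYB111-like gene also had higher salted arrays in 6 of 6 pairs, with 0.59 (SE 0.09, adjusted p = 0.0773). All 6 elicited and signalling genes had a salt difference below 0, from -0.38 for the Avr9/Cf-9 gene to -0.03 for the hsr203J-like gene, and none passed.

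Without Alethea (WS minus WW) limma called 0 members, and 19 were past an unadjusted p of 0.05, which is 17.9% beside 10.5% of all probe sets. After Alethea (AS minus AW) it called 0 members as well, with 8 past an unadjusted p of 0.05, 7.55% beside 4.97%. Over all 7779 probe sets, 0.0129% were called higher and 0.0257% lower without Alethea, and 0% in either direction after it. The interaction, which asks whether the salt difference depended on the spray, gave 0 calls in the members and 0% over all probe sets, where every adjusted p was 1.00. At an unadjusted p below 0.05 it gave 2 members, 1.89% beside 2.17% of all. These were TSI-1, at -0.67 (SE 0.27), and the unnamed Les.4444.1.S1_s_at, at -0.60, both named here after their values were seen. The median SE of the interaction among the members was 0.37, so that only differences several times this size could have been called with 12 arrays. The most extreme member values, 1.17 and -1.16, were not called either.

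The median interaction of the members was 0.08 over all occasions but 0.49 on occasion 1, -0.01 on occasion 2 and -0.08 on occasion 3, and 79, 52 and 46 of the 106 members had the larger Alethea difference under salt on the 3 occasions. On occasion 1, the actin excess too was larger in the salted pair, 1.18 against 0.09. The largest interaction values were 1.17 for Les.1481.1.A1_at, 1.16 for Les.3210.2.A1_at and 1.13 for the calcium ion binding gene, each with its largest single contribution on occasion 1. In the other direction were Les.1828.1.A1_at at -1.16, a gene matched to the ripening regulated protein DDTFR10/A at -0.94 and tXET-B2 at -0.90. Each of these 6 values rested largely on 1 occasion. Without occasion 1, the first 3 were 0.19, 0.50 and 0.14, without occasion 2 Les.1828.1.A1_at had -0.55, and without occasion 3 the DDTFR10/A gene had -0.135 and tXET-B2 0.33.

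**Figure D5:**
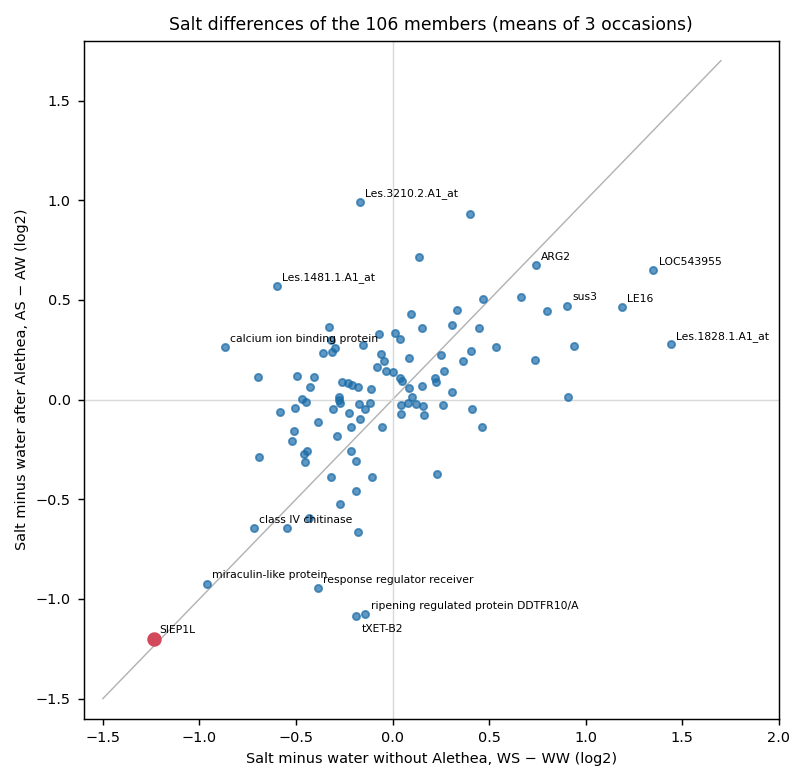
Salt difference without Alethea (WS minus WW, horizontal axis) against the salt difference after Alethea (AS minus AW, vertical axis) for the 106 members, as log2 means of 3 occasions, with the line of equal differences in grey. SIEP1L (red), the member called by limma over both sprays, lies at -1.24 and -1.20, and the other labelled members are those with the largest salt or interaction values, which did not pass the test.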

How the data were processed

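RNA of 12 leaf samples was labelled with the Affymetrix 3′ IVT Express kit and measured on the Affymetrix GeneChip Tomato Genome Array, 3 arrays for each of WW, WS, AW and AS. The authors deposited log2 values of 10209 probe sets, made with GCRMA, which subtracts background, quantile-normalises the arrays and summarises the probes. Its version was not given in the sources used here. Quantile normalisation sets all arrays to 1 distribution, so a general shift in RNA would not be seen, and precision is limited by having 12 arrays.

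The members and the gene lists were chosen with earlier results of these data known. All 10 lists were written from symbols of the array annotation after member values had been seen, so list counts and medians are not independent of those values, and roles were assigned by hand from names. Linear models (lmFit, then eBayes, limma 3.58.1, R 4.3.3) held 4 group terms plus a block for occasion and were run on 7779 probe sets with a mean above 3.2 in at least 1 group, the study's filter, 47 of them manufacturer's controls. Residual and prior degrees of freedom were 6 and 2.63. A call was a Benjamini-Hochberg adjusted p below 0.05 over all 7779. The study's own test, Rank Product, permutes ranks over probe sets and was not used. Tables and figures were made with Python 3.11.15, pandas 2.3.3, numpy 2.4.6 and matplotlib 3.10.9, and the fit and the rule were tested on simulated data.

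The block rests on the study's 3 separate occasions, numbered in the sample titles. After group means were taken away, the 18 couples of arrays that share an occasion correlated at r = 0.44 to 0.87, and the 36 from different occasions and different groups at -0.79 to 0.63. With 1 pool of 3 plants per group on each occasion, the p-values rest on how group differences varied between the 3 occasions. The spread between pools of the same group and occasion was not measured.

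Named genes were the 12 named members with the largest change, 2 to 4 of each list, the 5 members with the largest salt difference and the 3 with the largest interaction in each direction, the 4 probe sets on each side of the threshold, and members the study names. Other members with a role were added after their values were seen. Alternatives were no block, no filter, a filter of 5, a trend in eBayes, median-centred arrays, each occasion left out, and thresholds of 0.3 and 0.5. Sequences and promoter motifs were not analysed here.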

Additional observations from a re-analysis of the deposited data

Results flagged for a closer look

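The actin control, which the comparisons above do not use, stood apart between sprays. Its 3′ minus 5′ difference was 0.655 log2 units higher on Alethea than on water arrays, as a mean of 6 pairs, and was higher in 6 of 6. Its part in the members' Alethea change was not tested. No member had salt differences that ran one way on all 3 occasions after water and the other way on all 3 after Alethea. Groups of 3 arrays were not searched for outlying samples.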

How the results depend on the processing

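The block by occasion decided the single salt call: with no replicate block, 0 members were called lower, and SIEP1L kept its difference of -1.22 with an adjusted p of 1.00. Leaving out 1 occasion at a time gave 0 members called lower each time. With a trend in eBayes, 1 member, the MYB111-like gene, was called higher with salt, at 0.59 (adjusted p = 0.0396), and 1, SIEP1L, was called lower without Alethea, at -1.24 (adjusted p = 0.0493). The interaction of tXET-B2 was -0.90, and ranged from -1.55 to 0.33 with 1 occasion left out, where 0.33 is the value without occasion 3. The rule took 201 members at a threshold of 0.3, 57 at 0.5 and 24 where each of the 6 pairs had to reach 0.4, and 138 to 457 with 1 occasion left out, where only 2 occasions had to pass. With arrays centred on their medians 105 were taken, 101 of them the same.

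The number of members lower in occasion 1 was 64 without occasion 2 and 55 without occasion 3, of which 59 and 53 were among the 64 called from all occasions, and 60 to 64 under the filters, the trend and the centring. Levels near 3.2 limit ERF-H1, the peroxidase and the AAA-ATPase gene most.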
